A study of Arabidopsis thaliana with 14 samples.

Results

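The comparison described here is that of drought with water in wild-type (WT) *Arabidopsis* at day 2, the first time point after watering was stopped. It takes the WT channel of 4 of the 14 arrays of a 2-colour time course. The 2 arrays of drought-treated plants were set against the 2 arrays of watered plants, with channels paired by replicate and dye (Cy3 in replicate 1, Cy5 in replicate 2). WT was the Columbia-0 accession. It was co-hybridised on every array with quad, the bri1-301 bak1-3 brl1-1 brl3-1 mutant of the brassinosteroid receptors and their co-receptor. WT at day 0, WT at days 4 and 6 and quad at day 2, with 2 arrays for each condition, serve as references. Plants were grown in soil under long days. The series' design text gives whole plants of 28 days, and the study's methods give plants of 3 weeks, state that entire plants were collected, and then describe 2 biological replicates of 5 rosettes each, so whether roots were included was not settled by the sources used here. A channel therefore measures pooled plants, and which organs each pool held was examined with marker genes below. The time of day of collection was not given in the sources used here.

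Drying soil lowers the water potential around the root, and plants answer first with the hormone abscisic acid (ABA), which closes stomata and switches on genes for late embryogenesis abundant (LEA) proteins, dehydrins and osmolyte synthesis. Soil water also sets how fast iron, phosphate and nitrate reach the root and how much oxygen the root receives, so uptake systems and fermentation enzymes are sensitive to it as well. Brassinosteroids, steroid hormones perceived by BRI1, BRL1 and BRL3 with BAK1, promote growth and interact with ABA signalling.

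Levels are log2 intensities after normalisation, and 22641 genes were tested in 1 limma fit over all 28 channels. A gene is called, and said to rise or fall, where its p after Benjamini-Hochberg adjustment was under 0.05 and its log2 change was over 1.5 in size. Rise and fall name the level under drought beside that under water on the same day, not a change from day 0. With 2 channels a side, an exact two-sided permutation test cannot go below a p of 0.333, so the tests rest on the spread pooled over all conditions. Across the genes tested, r was 0.996 between the drought replicates and 0.996 between the water replicates, against 0.983 and 0.984 between drought and water within replicates 1 and 2 (genes are not independent replicates). The arrays of both treatments of a replicate lay on the same slide, so each replicate-pair difference is also a value within 1 slide. In replicates 1 and 2, 69.4% and 62.3% of probes were well above background in the drought channels, compared to 61.8% and 57.0% in the water channels. The part of that difference in the results was not tested. The quad channels bore their labels out in part: BAK1 was lower in quad than in WT by a log2 ratio of -2.12 to -1.86 on the 4 arrays, BRL1 by -1.94 to -1.30 and BRL3 by -1.0 to -0.87, while BRI1, of which bri1-301 is a missense allele, lay between 0.19 and 0.79. None of these receptors was called between drought and water in WT.

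At day 2, 208 of 22641 genes (0.919%) were called, 202 of them higher (0.892%) and 6 lower (0.0265%) under drought. Without quantile normalisation between arrays the count was 119, and with the scanner's processed signals it was 834. By the adjusted p alone 3746 genes (16.5%) differed, of which 2728 were higher (12%) and 1018 lower (4.5%). All 202 rises went the same way in both replicate pairs, with both drought channels above both water channels, an order that 7225 of all genes tested (31.9%) also showed. Their log2 changes ran from 1.5 to 4.12 with a median of 1.88. Of the 202, 157 were well above background in all 4 channels, and 31 were not above background in either water channel.

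**Figure D1:**
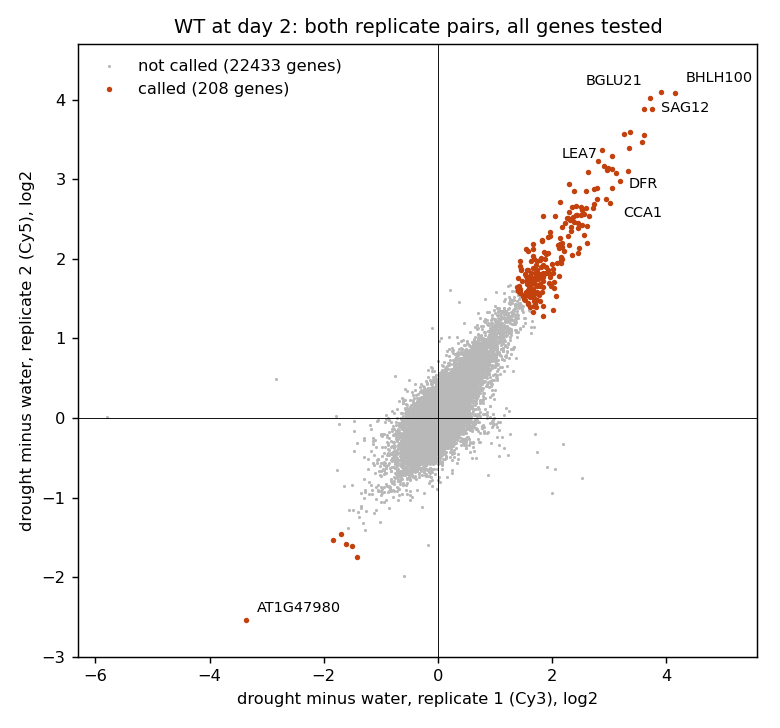
Drought minus water in WT at day 2 for replicate 1 (x axis, log2) against replicate 2 (y axis, log2), 1 point a gene. The 208 called genes, in red, lie close to the diagonal, 202 of them at the upper right and 6 at the lower left, and the differences of the 2 pairs correlated with r of 0.814 across the 22641 genes.

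BHLH100 (AT2G41240), a basic helix-loop-helix factor that activates iron uptake genes, showed the largest rise of the genes that every one of the 4 channels put well above background. Its levels were 11.49 and 11.46 under drought against 7.34 and 7.38 under water. Both drought channels stood far above both water channels in a log2 change of 4.12 (SE 0.31, limma adjusted p 3.14e-08).

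F6'H1 (AT3G13610), an enzyme of the synthesis of coumarins, which roots release to mobilise iron, had levels of 10.49 and 10.36 under drought against 6.89 and 6.47 under water. The groups did not overlap, and the change was 3.75 (SE 0.28, limma adjusted p 2.25e-08), or 13.4-fold. AT5G17820, annotated by the study as a peroxidase superfamily protein, had levels of 10.62 and 10.35 under drought against 7.00 and 6.80 under water. It rose by 3.58 (SE 0.20, limma adjusted p 8.28e-10).

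PDC1 (AT4G33070), a pyruvate decarboxylase of ethanol fermentation, had levels of 10.27 and 10.59 under drought against 7.02 and 7.02 under water. The water channels were nearly equal and both lay more than 3 log2 units lower than the drought channels, a change of 3.41 (SE 0.20, limma adjusted p 1.3e-09). DFR (AT5G42800), the dihydroflavonol reductase of anthocyanin synthesis, had levels of 11.66 and 11.62 under drought against 8.53 and 8.55 under water. Its replicates differed little within either treatment, and it rose by 3.1 (SE 0.27, limma adjusted p 1.68e-07).

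LEA7 (AT1G52690), a late embryogenesis abundant protein gene, had levels of 11.20 and 11.23 under drought against 8.14 and 8.11 under water. It rose by 3.09 (SE 0.13, limma adjusted p 7.62e-11), and its day 0 levels of 11.25 and 11.21 were next to the drought values and not the water values. CCA1 (AT2G46830), a morning-expressed MYB factor of the circadian clock, had levels of 10.88 and 10.84 under drought against 7.86 and 8.13 under water. It rose by 2.86 (SE 0.21, limma adjusted p 1.69e-08).

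The other rises among the 12 largest of genes well above background in all 4 channels were those of the beta-glucosidase gene BGLU22 (3.21, SE 0.14), the H-type thioredoxin gene TH8 (3.09, SE 0.25), AT2G14247 (3.48, SE 0.35), and a pair of loci on the iron list, AT1G47395 (3.52, SE 0.26) and AT1G47400 (2.98, SE 0.30). AT1G47395 and AT1G47400 are neighbouring loci, and whether their probes tell them apart was not tested. AT2G14247 and AT1G47400 did not pass the adjusted p without quantile normalisation between arrays. Among genes above background in the drought channels only, BGLU21 was at least 15-fold higher (limma adjusted p 2.75e-10) and the senescence marker SAG12, a cysteine protease gene, at least 13.2-fold (limma adjusted p 7.26e-10). A peroxidase gene, AT1G49570, was at least 8.87-fold higher and AT5G04120, of the phosphoglycerate mutase family, at least 8.86-fold. AT4G30170, well above background in 1 of the 2 water channels and named after its values were seen, rose by 3.82 (SE 0.18, limma adjusted p 2.75e-10).

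AT1G47980, annotated as a desiccation-like protein, had levels of 7.25 and 7.01 under drought against 10.62 and 9.55 under water. The water channels differed by about 1 log2 unit from each other but both stood above the drought channels, and the gene fell by 2.95 on the log2 scale (SE 0.24, limma adjusted p 8.68e-08), 7.74-fold. AT3G63095 (-1.69), AT3G16670 (-1.59), the pyruvate kinase family gene AT3G49160 (-1.59), ENH1 (-1.58), a chloroplast protein gene first known from salt tolerance, and the glycine-rich protein gene AT2G05540 (-1.56) lay close to the log2 limit. Without quantile normalisation between arrays these 5 did not pass the adjusted p. Leaving out water replicate 2 ended the call of AT3G49160 (-1.44) and leaving out water replicate 1 that of ENH1 (-1.42).

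**Figure D2:**
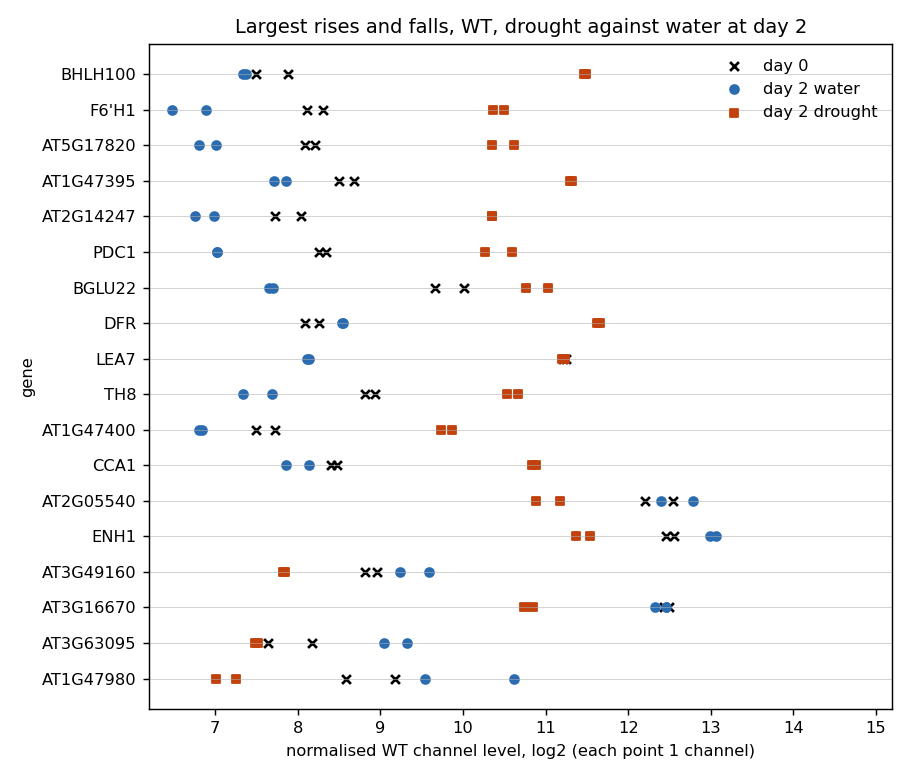
Normalised WT levels (x axis, log2) of the 12 largest rises and the 6 falls well above background in all 4 day 2 channels, with each point 1 channel. Drought (red squares) and water (blue circles) do not overlap for any of the 18 genes, which were chosen for large changes of the same direction in both pairs. Both drought channels lay above both water channels in 31.9% of all genes tested and below them in 23.5%. Day 0 (crosses) lies next to drought for LEA7, next to water for BHLH100 and between the 2 treatments for PDC1.

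Marker transcripts of the root were higher in the drought channels. BGLU21 and BGLU22 are on this list, and iron uptake, described next, is a function of the root surface. The summed level of 36 root markers, in units of 1000, was 35.3 and 31.4 in the drought channels, 20.0 and 18.3 in the water channels and 24.9 and 23.8 at day 0. Of the 36, 35 and 35 were above background under drought but 18 and 17 under water. The shares of all probes were 69.4% and 62.3% under drought and 61.8% and 57% under water. Of the 36 members 7 rose and 0 fell, 26 were higher by the adjusted p, and the median was 0.63 (0.60 with the 18 members dim in a treatment at their bound). Among all genes tested 0.892% rose, 12% were higher by the adjusted p, and the median was 0.02.

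CASP1 (AT2G36100), a scaffold of the Casparian strip of the endodermis, had levels of 8.75 and 8.85 under drought against 6.61 and 6.66 under water. It rose by 2.17 (SE 0.16, limma adjusted p 2.59e-08), and PER64, the peroxidase gene of the same strip, rose by 2.39 (SE 0.41, limma adjusted p 0.000402). The phosphate transporter gene PHT1;1 had levels of 10.65 and 10.50 under drought against 8.15 and 7.95 under water. It rose by 2.52 (SE 0.19, limma adjusted p 3.26e-08), and the nitrate transporter gene NRT2.1 by 2.09 (SE 0.16, limma adjusted p 5.3e-08). The root hair genes EXPA7, an expansin, and COBL9 were at least 2.56- and 2.41-fold higher and were not called.

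The stem cell and endodermis factors SHR, SCR and WOX5 did not pass the test. SHR differed by -0.06, SCR by -0.12 and WOX5 by -0.12, none past the adjusted p, and SHR and SCR also act in the shoot. These 3 factors were the only members of the root list below 0, against 33 above it. The potassium transporter gene HAK5 was not above background in any of the 4 channels. Photosynthesis transcripts summed to 647 and 702 such units under drought and 719 and 765 under water. Of 34 such genes, 0 were called, 4 were higher and 4 lower by the adjusted p, and the median was -0.11. Over all genes tested 0.919% were called, and 12% were higher and 4.5% lower by the adjusted p, so 0 calls among 34 say little. The Rubisco small subunit gene RBCS3B differed by -1.01 (SE 0.24, limma adjusted p 0.0073) and the light-harvesting gene LHCB1.1 by 1.03 (SE 0.21, limma adjusted p 0.00195). A larger share of root in the pools, more RNA per root cell and regulation of the markers themselves cannot be told apart in these samples. The part of root content in the results was not tested.

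**Figure D3:**
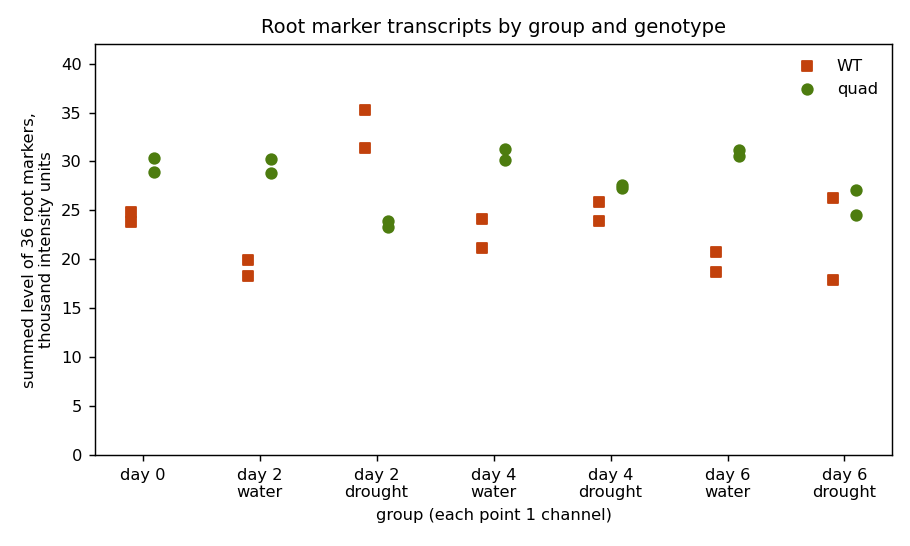
Summed level of 36 root markers (y axis, units of 1000 intensity) by group (x axis), each point 1 channel. WT (squares) was highest under drought at day 2, at 35.3 and 31.4, and quad (circles) was lower under drought than under water at the same day, at 23.4 and 23.9 against 30.3 and 28.8.

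Iron uptake genes formed the list with the most calls. Plants of this kind acidify the soil, reduce ferric iron with FRO2 and import it with IRT1, under the control of the factor FIT and its partners BHLH38, BHLH39, BHLH100 and BHLH101. Of 32 measured members 13 rose, none fell, and 28 were higher by the adjusted p alone. Among all genes tested 0.892% rose and 12% were higher by it. The list's median was 1.11, beside 0.02 over all genes tested. It was the same with the 7 members not above background in a treatment set at their bound.

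All 4 partner factors of FIT rose. BHLH38 had levels of 9.57 and 9.62 under drought against 6.59 and 6.48 under water, well above background in 1 of the 2 water channels, and rose by 3.06 (SE 0.16, limma adjusted p 5.12e-10). BHLH39 rose by 2.83 (SE 0.16, limma adjusted p 1.31e-09) and BHLH101 by 2.47 (SE 0.19, limma adjusted p 5.21e-08). FIT (AT2G28160) itself had levels of 9.34 and 9.35 under drought against 8.97 and 8.81 under water, a difference of 0.45 that passed the adjusted p (0.00743) but not the log2 limit.

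The transporter gene IRT1 had levels of 9.32 and 9.74 under drought against 6.51 and 6.51 under water. Both drought channels were higher by about 3 log2 units, a change of 3.02 (SE 0.21, limma adjusted p 1.02e-08). FRO2, the ferric chelate reductase gene of the root surface, had levels of 10.01 and 10.13 under drought against 7.49 and 7.48 under water. It rose by 2.58 (SE 0.11, limma adjusted p 8.4e-11), and FRO3, a reductase gene of the same family, by 1.87 (SE 0.18, limma adjusted p 7.1e-07). ABCG37, which exports phenolic compounds from roots, was at the log2 limit (1.5, SE 0.14, limma adjusted p 4.32e-07), and AT3G12900, an oxygenase family gene, was at least 4.09-fold higher. AT2G30766 rose by 2.77 (SE 0.30, limma adjusted p 3.11e-06). The uptake gene IRT2 was not above background in any of the 4 channels, and BGLU42 differed by 0.08 (limma adjusted p 0.764). CYP82C4, a coumarin hydroxylase gene, was at least 2.39-fold higher, and BTS, an E3 ligase gene that restrains the iron response, differed by 1.23 (SE 0.16, limma adjusted p 1.69e-05). Neither was called.

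Genes of iron storage lay on the other side. The list of 11 had a median of -0.57, and 6 members were lower and 2 higher by the adjusted p alone, with 0 called. Over all genes tested 4.5% were lower and 12% higher by it, and 0.919% were called. FER1 (AT5G01600), which encodes the plastid iron store ferritin, had levels of 10.73 and 10.31 under drought against 11.74 and 11.63 under water. Both drought channels were below both water channels, by -1.16 (SE 0.16, limma adjusted p 3.25e-05). FER4 (-0.86) and FER3 (-0.71) were lower by the adjusted p, whereas FER2 was not (-0.05, limma adjusted p 0.897). NEET, an iron-sulphur protein gene, differed by -1.15 (SE 0.17, limma adjusted p 6.88e-05). The storage-side members higher under drought were VTL5, of the vacuolar iron transporter family (0.94, SE 0.16, limma adjusted p 0.000403), and the metal-nicotianamine transporter YSL3 (0.48, SE 0.14, limma adjusted p 0.0255).

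Of 20 flavonoid genes measured, 8 rose, 0 fell and 16 were higher by the adjusted p, with a median of 1.14 (1.12 with 2 dim members at their bound). Among all genes tested 0.892% rose and 12% were higher by the adjusted p. CHS (AT5G13930), the chalcone synthase at the entry of the pathway, had levels of 13.97 and 14.17 under drought against 11.98 and 12.24 under water and rose by 1.96 (SE 0.27, limma adjusted p 3.41e-05). The hydroxylase gene F3'H rose by 2.23 (SE 0.14, limma adjusted p 2.77e-09). LDOX, which makes the coloured anthocyanidins, had levels of 12.11 and 12.01 under drought against 9.36 and 9.32 under water, and rose by 2.72 (SE 0.29, limma adjusted p 2.37e-06).

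The glycosyltransferase gene UGT79B1 rose by 2.48 (SE 0.33, limma adjusted p 2.7e-05), AT4G14090 by 1.90 (SE 0.21, limma adjusted p 2.61e-06), and TT19, a glutathione transferase gene needed for pigment transport to the vacuole, by 2.29 (SE 0.22, limma adjusted p 6.36e-07). PAP1 (AT1G56650), the MYB factor that drives the anthocyanin branch, had levels of 10.05 and 10.02 under drought against 8.22 and 8.22 under water and rose by 1.82 (SE 0.12, limma adjusted p 6.88e-09). The acyltransferase gene 5MAT differed by 1.16 (SE 0.28, limma adjusted p 0.00753) and was not called. PAP2, not above background in the water channels, was at least 1.95-fold higher and was not called. The factors of the flavonol branch differed by 0.13 (MYB111) and -0.19 (MYB12), both short of the adjusted p (0.508 and 0.203), and MYB11 was not above background in either water channel. The flavonol synthase gene FLS1 differed by 0.41 (SE 0.12, limma adjusted p 0.0202). Of 16 genes of general phenylpropanoid and lignin synthesis 0 were called, where the share over all genes was 0.919%, with a median of 0.32. Without quantile normalisation between arrays, which raised the median SE over all genes from 0.117 to 0.349, LDOX and UGT79B1 kept their log2 change but no longer passed the adjusted p.

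Hypoxia genes were the third list with a median above 1. Of 15 measured, 6 rose, 0 fell and 10 were higher by the adjusted p, with a median of 1.11. The shares over all genes tested were 0.892% for rises and 12% for higher by the adjusted p. Besides PDC1, the calmodulin-like gene CML38 had levels of 11.68 and 11.48 under drought against 9.06 and 9.28 under water. It rose by 2.41 (SE 0.13, limma adjusted p 4.96e-10). ADH1, the alcohol dehydrogenase that completes ethanol fermentation, had levels of 13.72 and 13.72 under drought against 11.85 and 11.63 under water and rose by 1.98 (SE 0.12, limma adjusted p 1.5e-09).

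The factor gene HRE2 (1.80, SE 0.13), above background in 1 of the 2 water channels, the haemoglobin gene HB1 (1.78, SE 0.12) and the sucrose synthase gene SUS4 (1.51, SE 0.12) also rose. PCO2, an oxygen-sensing cysteine oxidase gene, was at least 2.58-fold higher without a call, and HRE1 differed by 1.11 (SE 0.12, limma adjusted p 3.54e-06). Other members lay lower. LBD41 differed by 0.35, PCO1 by 0.16 and SUS1 by 0.17, none past the adjusted p.

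**Figure D4:**
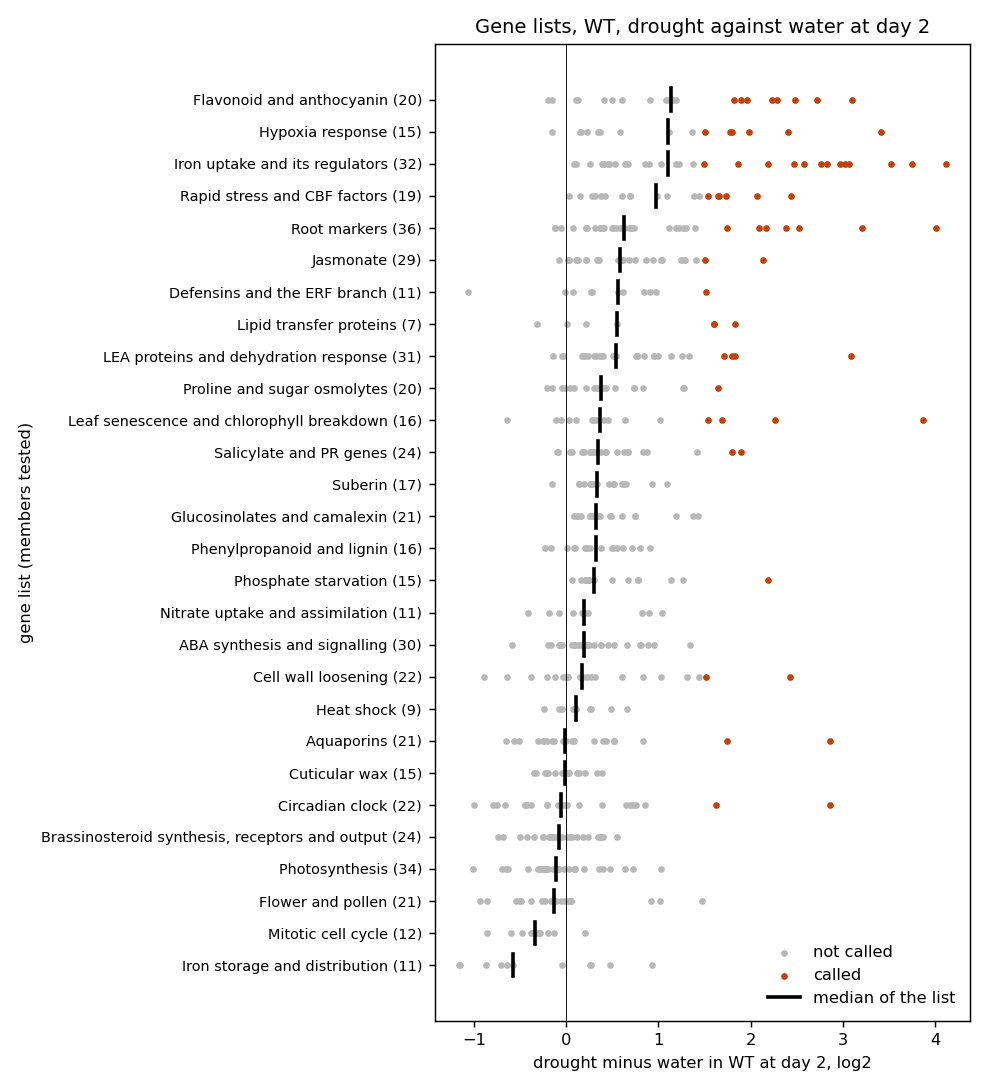
Drought minus water in WT at day 2 (x axis, log2) for every measured member of 28 gene lists (y axis, number of members tested in parentheses), ordered by median. Called members are red and the black bar is the list's median. The flavonoid, hypoxia and iron uptake lists have medians of 1.14, 1.11 and 1.11, and the iron storage list has the lowest, -0.57.

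Water channels gave 2 calls among 21 genes. TIP2;3, a tonoplast aquaporin gene, was at least 7.27-fold higher (limma adjusted p 4.88e-09) and NLM1 rose by 1.75 (SE 0.10, limma adjusted p 1.31e-09), whereas the other 19 aquaporins measured were not called. DELTA-TIP (-0.57), GAMMA-TIP (-0.51) and PIP1D (-0.65) were lower by the adjusted p, and the list's median was -0.01. Of 15 phosphate starvation genes 1 was called, the transporter PHT1;2 (2.19, SE 0.20, limma adjusted p 3.18e-07), whose sequence is close to that of PHT1;1, and whether their probes tell them apart was not tested. Suberin genes had a median of 0.34 with 0 of 17 called and 9 higher by the adjusted p. Over all genes tested 0.919% were called and 12% were higher by the adjusted p. At that share of calls, lists of the size of these 3 would hold few or none. ABCG6, a suberin exporter gene, differed by 1.1 (SE 0.14, limma adjusted p 1.21e-05).

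Of 30 genes of ABA synthesis and signalling 9 were higher and 1 lower by the adjusted p, beside 12% and 4.5% of all genes tested, and the median was 0.20. None was called, where the share over all genes was 0.919%, so that a list of this size would hold few calls or none. NCED3 (AT3G14440), the dioxygenase that limits ABA synthesis under drought, had levels of 10.42 and 10.42 under drought against 10.07 and 10.17 under water. The difference was 0.30 (SE 0.09, limma adjusted p 0.031), and the day 0 mean of 11.43 was above both groups. CYP707A3, which degrades ABA, differed by 1.35 (SE 0.13, limma adjusted p 6.26e-07) without a call.

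LEA and dehydration genes were higher under drought in a larger share. Of 31 measured, 4 rose, 0 fell and 19 were higher by the adjusted p, with a median of 0.54. Among all genes tested 0.892% rose and 12% were higher by it. RD29B (AT5G52300), a gene long used as an ABA reporter, had levels of 9.38 and 9.90 under drought against 7.84 and 7.78 under water. It rose by 1.83 (SE 0.22, limma adjusted p 9.49e-06). The dehydrin LTI30 had levels of 12.29 and 12.29 under drought against 10.23 and 10.77 under water and rose by 1.80 (SE 0.11, limma adjusted p 3.19e-09), and COR15A, a chloroplast protectant of cold and drought, rose by 1.71 (SE 0.09, limma adjusted p 2.75e-10). RD29A (0.30), RAB18 (0.18), DREB2A (0.33) and RD26 (-0.05) did not pass the adjusted p.

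Of 20 genes of proline and sugar osmolytes 1 rose, the galactinol synthase gene GOLS3 (1.65, SE 0.23, limma adjusted p 4.49e-05). The share that rose over all genes was 0.892%, so 1 call among 20 says little. P5CS1, which makes proline, differed by 0.74 (SE 0.15, limma adjusted p 0.00194) and the proline-degrading PRODH1 by 0.83 (SE 0.24, limma adjusted p 0.0202), both without a call. RD29B and GOLS3 did not pass the adjusted p without quantile normalisation between arrays.

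Rapidly induced stress factors and the cold-related CBF factors rose in 6 of 19 cases, with 14 higher by the adjusted p and a median of 0.98. The shares over all genes were 0.892% for rises and 12% for higher by the adjusted p. DDF1 (AT1G12610), a DREB-type factor that lowers gibberellin, had levels of 8.89 and 9.22 under drought against 6.60 and 6.63 under water. It rose by 2.44 (SE 0.21, limma adjusted p 2.03e-07). WRKY18 had levels of 13.31 and 13.10 under drought against 11.16 and 11.11 under water and rose by 2.07 (SE 0.12, limma adjusted p 1.5e-09), together with its relative WRKY40 (1.65, SE 0.16), the zinc finger gene ZAT10 (1.66, SE 0.09) and the repressor gene ERF11 (1.54, SE 0.15). CBF2 rose by 1.73 (SE 0.12, limma adjusted p 1.62e-08), but CBF1 differed by 0.42 and CBF3 by 0.03, and CBF3 did not pass the adjusted p (0.898).

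Defence hormones gave a mixed account. Of 29 jasmonate genes 2 rose and 18 were higher by the adjusted p, with a median of 0.59. Among all genes tested 0.892% rose and 12% were higher by it. NATA1 (AT2G39030), an ornithine acetyltransferase induced by jasmonate, had levels of 10.47 and 10.43 under drought against 8.34 and 8.30 under water, far below its day 0 levels of 14.69 and 14.48. It rose by 2.13 (SE 0.27, limma adjusted p 1.74e-05) between the day 2 groups. The lipoxygenase gene LOX4 was at the limit (1.5, SE 0.26, limma adjusted p 0.000364), and leaving out drought replicate 2 or water replicate 1 ended its call (1.4 and 1.2).

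Of 24 salicylate and PR genes 2 rose, the glucanase BGL2 (1.89, SE 0.32, limma adjusted p 0.000347) and the thaumatin-like PR5 (1.80, SE 0.33, limma adjusted p 0.000651), with a median of 0.35. The share that rose over all genes was 0.892%. The marker PR1 had levels of 10.37 and 10.62 under drought against 8.90 and 9.26 under water and differed by 1.42 (SE 0.26, limma adjusted p 0.000757), short of the log2 limit. Of 11 defensins and related genes the chitinase HCHIB rose (1.51, SE 0.22, limma adjusted p 6.99e-05), a call that ended without drought replicate 1 (1.46) or water replicate 2 (1.43). NATA1, LOX4, BGL2, PR5 and HCHIB did not pass the adjusted p without quantile normalisation between arrays.

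In the lipid transfer protein family, whose members carry cuticle lipids and respond to ABA, 3 of 7 rose, beside 0.892% of all genes. LTP4 (AT5G59310) had levels of 13.01 and 13.03 under drought against 10.97 and 11.39 under water. It rose by 1.83 (SE 0.13, limma adjusted p 1.71e-08), LTP2 by 1.60 (SE 0.23, limma adjusted p 7.05e-05) and the near-identical LTP3 by 1.60 (SE 0.24, limma adjusted p 9.18e-05), and whether the LTP3 and LTP4 probes tell the genes apart was not tested. LTP2 lost its call without drought replicate 1 (1.45) or water replicate 2 (1.48), and LTP2 and LTP3 without quantile normalisation between arrays.

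Clock genes went both ways. Of 22 measured, 7 were higher and 6 lower by the adjusted p, and 2 were called. Among all genes tested 12% were higher and 4.5% lower by it, and 0.919% were called. LHY, the partner of CCA1, had levels of 8.37 and 8.27 under drought against 6.80 and 6.59 under water and rose by 1.62 (SE 0.18, limma adjusted p 4.34e-06), and its call ended without water replicate 2 (1.49) and with the mean over its probes (1.25). The morning genes LNK1 (0.75), LNK2 (0.86) and RVE8 (0.69) were higher and the evening genes ELF4 (-0.66), BOA (-0.79), ELF3 (-0.44), FKF1 (-0.42) and TOC1 (-0.37) lower by the adjusted p, although the drought and water channels of TOC1 overlapped. The order by phase had exceptions, since the afternoon gene PRR5 was higher (0.39) and RVE2 lower (-1.0). The hour at which each group was collected was not given in the sources used here, and its part in these values was not tested.

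Senescence markers rose in 4 of 16 cases, where the share over all genes was 0.892%. SAG12 had levels of 10.03 and 10.17 under drought against 6.31 and 6.15 under water, with both water channels not above background. Its mean in watered WT was 6.39 at day 4 and 9.91 at day 6, the latter next to its drought levels at day 2. SAG13 rose by 2.27 (SE 0.33, limma adjusted p 7e-05), SAG21 by 1.69 (SE 0.18, limma adjusted p 2.53e-06) and the sugar transporter gene SAG29 by 1.54 (SE 0.36, limma adjusted p 0.00509), and SAG21 lost its call without drought replicate 1 (1.34). SAG13 and SAG21 did not pass the adjusted p without quantile normalisation between arrays, and SAG13 lost its call with the mean over its probes (1.24). The chlorophyll breakdown genes SGR1 (0.32), PPH (0.28) and PAO (0.04) and the factor gene ORE1 (0.11) did not pass the adjusted p, and NYC1 was lower by it (-0.65, SE 0.20, limma adjusted p 0.0312). In the cell wall group XTH20 rose by 2.43 (SE 0.14, limma adjusted p 8.28e-10) and XTH19 by 1.52 (SE 0.20, limma adjusted p 2.42e-05), 2 of 22 measured. Both encode enzymes that cut and rejoin xyloglucan, and XTH19 lost its call without drought replicate 2 (1.49) or water replicate 2 (1.45) and without quantile normalisation between arrays.

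Several further lists held 0 calls, which at the share of 0.919% over all genes says little about lists of this size. By the adjusted p alone 12% of all genes were higher and 4.5% lower. Of 12 mitotic genes 5 were lower and 0 higher by the adjusted p with a median of -0.34, and the largest differences were those of CDC20.1 (-0.85, SE 0.15, limma adjusted p 0.000494) and the cytokinesis gene KNOLLE (-0.60, SE 0.10, limma adjusted p 0.000375). Of 24 brassinosteroid genes 2 were higher and 5 lower by it, with a median of -0.08. BAS1, which inactivates brassinosteroids, differed by -0.74 (SE 0.11, limma adjusted p 8.06e-05) and the synthesis gene BR6OX2 by -0.68 (SE 0.18, limma adjusted p 0.0136). The lists of cuticular wax, heat shock, nitrate and glucosinolate genes also had 0 calls, with the called nitrate transporter gene NRT2.1 kept on the root list. Of the last, 9 of 21 genes, which include those of camalexin, were higher by the adjusted p, among them the camalexin genes CYP71A13 (1.43) and PAD3 (1.37). Flower markers had 0 calls among 21 and a median of -0.13, with the summed level at 7.34 and 9.17 under drought and 8.81 and 9.0 under water. AP1, which specifies floral meristems, differed by -0.85 (SE 0.12, limma adjusted p 6.27e-05) and the pollen gene GRP19 by 1.47 (SE 0.19, limma adjusted p 1.98e-05).

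The plants of day 0 give a second reference for the day 2 groups. Both day 2 groups share the day 0 channels, so their values are given side by side. Against day 0, 359 genes were called under drought (1.59%) and 402 under water (1.78%). Of these, 178 were higher (0.786%) and 181 lower (0.799%) under drought, while 34 were higher (0.15%) and 368 lower (1.63%) under water. Without day 0 replicate 2 the water counts were 103 higher and 393 lower. Of the 202 genes called higher under drought than under water, 78 were called above day 0 under drought and 4 below it. Under water 46 of the 202 were called below day 0, and 80 were called against day 0 in neither group. Flower markers summed to 4.08 and 4.00 at day 0, below both day 2 groups, and the part of age in these values was not tested.

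Flavonoid genes had medians against day 0 of 1.4 under drought and 0.40 under water. LDOX was 3.50 above day 0 under drought and 0.79 under water. Iron uptake genes had medians of 0.78 and -0.23, and FRO2 was 2.41 from day 0 under drought and -0.18 under water. Hypoxia genes lay at 0.59 and -0.35. Of the iron uptake genes 11 were called above day 0 under drought, and of the flavonoid genes 9.

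LEA genes were nearer to day 0 under drought than under water. Their medians against day 0 were -0.49 under drought and -1.2 under water, and LEA7 was -0.02 from day 0 under drought but -3.11 under water. Levels in watered WT also differed between days. The watered means at days 2, 4 and 6 were 8.12, 14.09 and 10.17 for LEA7 and 7.81, 12.10 and 8.76 for RD29B. Jasmonate genes were below day 0 in both groups, with medians of -1.27 and -1.82, and NATA1 was -4.14 and -6.27 from day 0. Of the 29, 12 were called below day 0 under drought and 17 under water. The rapid stress factors lay at 0.30 and -0.67, and ZAT10 at 0.01 and -1.64.

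**Figure D5:**
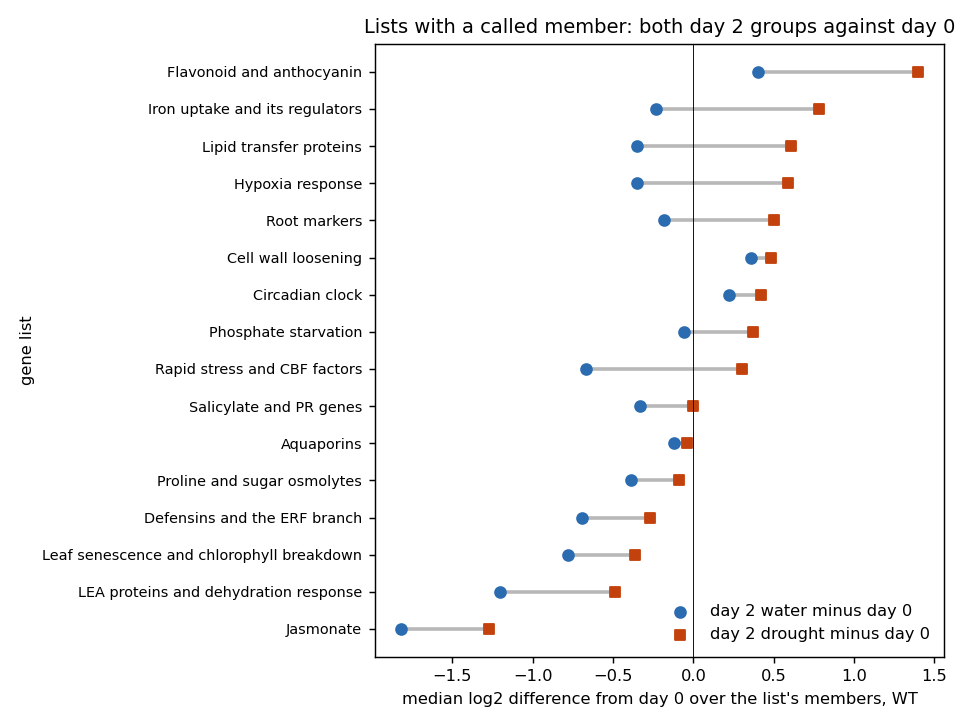
Median log2 difference from day 0 (x axis) in WT over the members of the 16 lists with a called gene, for day 2 drought (red squares) and day 2 water (blue circles), which share the day 0 channels. The flavonoid list reaches 1.4 under drought and 0.40 under water, and the LEA list lies at -0.49 and -1.2.

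The same plants' WT change was then set against the drought change of quad, whose channels lie on the same 4 arrays but hold other RNA. In quad 111 genes (0.49%) were called, 4 higher (0.0177%) and 107 lower (0.473%) under drought. Of the 208 genes called in WT, 42 were also called in quad (20.2% of 208 and 37.8% of 111), all 42 in the opposite direction. The median change of the 202 WT rises was -0.70 in quad, beside -0.02 over all genes tested, and 167 of the 202 were below 0 there.

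In the test of the difference itself, 618 genes (2.73%) were called, of which 578 (2.55%) changed more upward in WT than in quad and 40 (0.177%) more downward. Among genes also called in WT SAG12 differed by 8.41 (SE 0.23, limma adjusted p 9.72e-15), with a quad change of -4.54, fitted values since both WT water channels were not above background. AT2G37870, of the lipid transfer protein superfamily, had WT levels of 10.53 and 10.50 under drought against 7.92 and 7.86 under water. It rose by 2.62 in WT and fell by 5.23 on the log2 scale in quad, a difference of 7.85 (limma adjusted p 3.68e-17). LTP4 changed by -5.18 in quad and LEA7 by -3.28. By list, the difference was called upward for 15 of 32 iron uptake genes, 12 of 31 LEA genes, 10 of 20 flavonoid genes, 8 of 36 root markers and 7 of 15 hypoxia genes.

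The day 2 change in WT also differed from the WT changes at later days, which share no channel with it. At day 4, 51 genes (0.225%) were called between drought and water, 12 higher (0.053%) and 39 lower (0.172%), and 6 of the 208 day 2 genes were among them (2.88% of 208 and 11.8% of 51), all in the same direction. At day 6 there were 96 such genes (0.424%), 38 higher (0.168%) and 58 lower (0.256%), and 19 of the 208 were among them (9.13% of 208 and 19.8% of 96), 13 in the same and 6 in the opposite direction. The 202 rises had a median change of 0.24 at day 4 and -0.10 at day 6, beside -0.03 and 0.02 over all genes tested.

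Tested as a difference, 266 genes (1.17%) were called, of which 259 (1.14%) changed more upward at day 2 than at day 4 and 7 (0.0309%) more downward. Among genes also called at day 2 BHLH100 differed most, by 4.50 (SE 0.44, limma adjusted p 2.93e-06), with a change at day 4 of -0.38. AT2G14247 differed by 3.68. Without quantile normalisation between arrays the count was 94 against day 4 and 65 against day 6, and with the scanner's processed signals 918 and 1412. Against day 6, 431 genes (1.9%) were called, of which 403 (1.78%) changed more upward and 28 (0.124%) more downward at day 2. BGLU21 differed by 4.86 (SE 0.28, limma adjusted p 2.91e-09) and TH8 by 4.75, with day 6 changes of -0.85 and -1.67. The value of BGLU21 is fitted, since it was not above background in the day 2 water channels. Some of the 12 largest rises of genes well above background recurred at day 6. CCA1 changed by 2.77 at day 6 and by -0.21 at day 4. AT2G14247 was also called higher under drought at day 6, with a change of 1.51. BHLH100, AT1G47395 and AT1G47400 were higher at day 6 by the adjusted p but short of the log2 limit. Of the rest of the 12, DFR differed by 0.13 at day 6 and the others were below 0. Iron uptake genes differed upward in 12 of 32 cases from day 4 and in 10 from day 6, and flavonoid genes in 8 and 7 of 20.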

How the data were processed

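RNA of WT and quad was hybridised together on 14 Agilent 2-colour arrays, with dyes exchanged between replicates 1 and 2. Per the file headers, the scanner output of Feature Extraction 10.5.1.1 holds linear intensity values, for which the median signal and background of each channel were used here, and flags for outlier, saturated and dim spots. The deposited log2 ratios, normalised by the authors, served as an alternative for the comparison of WT with quad. Their direction was checked against the scanner ratios, deposited as log10 of red over green.

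Background was corrected with normexp (offset 50), dyes by loess within arrays and average intensity by quantiles between arrays, with control spots (1417 of 45210) and outlier spots at weight 0. Probes (43643, of which 36953 carried a locus) were averaged, and the probe with the highest mean stood for a locus. A gene was kept where both arrays of some genotype and condition put it well above background, which removed 5517 of 28327, and 169 genes with outlier spots were not tested. A single-channel fit (limma 3.58.1, R 4.3.3, statmod 1.5.0) over 28 channels had 14 genotype and condition coefficients, a dye term and a replicate block. The intraspot correlation was 0.432, and the residual and prior degrees of freedom were 12 and 5.76. Each number of replicate also names a dye and, for day 2, a slide, so these cannot be told apart. Same-numbered samples shared their deviations from the group means with r of 0.249 across genes. The study's methods call the replicates biological, and p-values measure the spread between these samples. The number of arrays limits the precision.

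On simulated data of 22641 genes, all 100 genes changed by a log2 of 2 and all 100 changed by 3 were recovered. There were 0 false calls among the unchanged genes. The noise was drawn for each gene at its own spread, with no shift between arrays, dyes or slides and no normalisation step. The simulation therefore cannot show how many false calls such shifts or the processing would give. Where both water channels were not above background, "at least N-fold" sets the mean drought level against the higher of the dim level and the lowest signal above background on each array.

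Genes named were first the 12 largest rises and 6 largest falls. These were called in the fit, moved the same way in both replicate pairs and were above background in all 4 channels. Also named were up to 3 called and 2 other members of each list, up to 4 bounds, and 2 genes for each of 3 tests of a difference. Other members named were chosen after their values were seen. The members and the 28 lists (584 genes, 561 tested) were chosen with earlier results of these data known. Symbols came from RefSeq (TAIR10.1) by locus. The array was annotated on an older build, so no coordinates are given. Alternatives were the background offset, the scanner's processed signals, between-array scaling, filters, probe summary, slide and replicate terms, thresholds, and each replicate left out.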

Additional observations from a re-analysis of the deposited data

Results flagged for a closer look

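The drought change of WT at day 2 differed from that of quad in 618 genes by the test of the difference itself (limma, adjusted p under 0.05 and an absolute log2 difference over 1.5). Among genes also called in WT, SAG12 differed by 8.41 on the log2 scale and AT2G37870 by 7.85. Both were higher under drought in the 2 WT channels and lower in the 2 quad channels of the same arrays.

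The same test gave 266 genes whose WT change at day 2 differed from that at day 4, led by BHLH100 with 4.50 and AT2G14247 with 3.68. It gave 431 genes against day 6, among them BGLU21 with 4.86 and TH8 with 4.75. The values of SAG12 and BGLU21 are fitted against day 2 water channels of WT that were not above background, so their order is not settled. Without quantile normalisation between arrays the counts were 617, 94 and 65, and with the scanner's processed signals 1732, 918 and 1412. Array outlier spots were few, between 1 and 126 of the 45210 spots of an array, with the most on the drought array of replicate 1 at day 4. Without that array the day 4 count was 280.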

How the results depend on the processing

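No named gene changed direction under any alternative run, nor did a list median other than those of aquaporins and cuticular wax, which lay at -0.01. Of 476 list medians recomputed, 127 moved by more than the replicate spread. The replicate terms are in the model, and the same 208 genes were called without the replicate block. The counts depended on the background offset, the signal used, the threshold and the scaling between arrays. In the order day 2, against quad, against day 4, against day 6, drought against day 0 and water against day 0, a background offset of 0 gave 509, 1294, 600, 923, 682 and 737 genes, and the scanner's processed signals 834, 1732, 918, 1412, 1027 and 1136, with 105 list members called in place of 64. The adjusted p alone gave 3746, 7124, 2298, 4249, 6617 and 6320 genes, with 282 list members and 101 named genes in place of 50. A log2 limit of 1 gave 567, 1484, 767, 1187, 971 and 976, with 114 and 84. Without quantile normalisation between arrays, 119 genes were called at day 2, 94 against day 4 and 65 against day 6, with 40 list members and 29 named genes. Of the 208, 207 still passed the log2 limit there and 118 the adjusted p, and the median SE was 0.349 in place of 0.117.

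Leaving out 1 replicate at a time gave 196 to 214 genes at day 2, 583 to 679 against quad, 248 to 307 against day 4, 409 to 587 against day 6, 359 to 441 for drought and 402 to 496 for water against day 0, 57 to 63 list members and 46 to 49 named genes. The arm left with 1 channel was assumed to vary like the others. The deposited ratios, an alternative added after seeing the data, gave 615 genes against quad. The split of water against day 0, 34 higher and 368 lower, became 94 and 381 with slide as a block and 260 and 876 with the scanner's processed signals. Quantiles taken over all channels ended the calls of LOX4 (1.45), HCHIB (1.45), LTP3 (1.36), LHY (1.5) and XTH19 (1.39). The cause of these shifts was not tested. Probes near background limit what can be said of low genes, for which only bounds are given.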
